A study of Homo sapiens with 4 samples.

Results

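Closely spaced gene pairs were described in MCF10A, an immortalised, non-malignant line of human mammary epithelial cells. A pair was counted when the gap between the records of 2 neighbouring protein-coding genes on chromosomes 1 to 22 was 1 to 1000 bp long and no protein-coding record covered it. By this rule 2018 of the 16401 gaps between neighbouring records were members, and they involved 3692 of 18973 protein-coding genes (19.5%). Of these genes, 344 belonged to a close pair on either side, so the pairs are not all independent. The median gap was 266 bp (quartiles 131 and 519 bp, range 1 to 997 bp). Chromatin immunoprecipitation with sequencing had been done once per mark, with antibodies to H3K4me3, H3K27me3 and H3K79me2, in cells grown in mammary epithelial medium with 100 ng/ml cholera toxin. An input DNA library was made from the same line, and its signal was not analysed here. The values are the authors' peaks in hg38 and the gene records are those of RefSeq in GRCh38.p14. With 1 library per mark there was no replicate error and no test between marks or classes, and the read depth is unknown, so every difference below is a description of these libraries.

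When a pair of genes lies back to back, both can start from the same short stretch of open, often CpG-rich DNA, called a bidirectional promoter. H3K4me3 marks the nucleosomes around start sites that are active or poised. H3K79me2 is laid down by the methyltransferase DOT1L on the first part of genes that are being transcribed, and H3K27me3 is the mark of repression by Polycomb complexes. The bodies of such a pair can each carry or lack H3K79me2 and H3K27me3.

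The direction of transcription was taken from the RefSeq promoter table, which gave a strand for 3065 of the 3692 genes (83.0%). Head-to-head pairs, in which both genes start at the gap, numbered 748. In 377 tandem pairs one gene ended and the next one started at the gap, and in 337 tail-to-tail pairs both ended there. For 556 pairs the strand of at least 1 gene was not known from this table. The median gap was 169 bp in head-to-head pairs, 475 bp in tandem pairs and 373 bp in tail-to-tail pairs.

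The DNA of some head-to-head gaps is shown because these pairs carry the contrasts described below. Each sequence is the whole gap between the records, taken from the RefSeq promoter windows of GRCh38.p14 and written on the plus strand. Capitals mark matches on either strand to CCAAT (a site of the factor NF-Y), GGGCGG (a core of GC boxes), TATAAA or CCGGAAGT (a core of ETS factor sites). The longer consensus sites of NRF1 and YY1 were searched too and had no match in the gaps shown. None of these strings contains another, but matches can overlap. The first group had H3K4me3 over the gap and H3K79me2 on both genes. GART and SON (chr21:33542894-33543037) encode a purine synthesis enzyme and a splicing cofactor, COL4A1 and COL4A2 (chr13:110307158-110307283) encode the main chains of basement membrane collagen, and SARS2 and MRPS12 (chr19:38930764-38930943) encode proteins of mitochondrial translation. H3C4 and H2BC7 (chr6:26199294-26199515) are histone genes.

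GART/SON: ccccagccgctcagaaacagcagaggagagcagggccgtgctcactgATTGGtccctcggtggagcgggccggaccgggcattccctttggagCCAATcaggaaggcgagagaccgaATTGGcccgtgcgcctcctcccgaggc

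COL4A1/COL4A2: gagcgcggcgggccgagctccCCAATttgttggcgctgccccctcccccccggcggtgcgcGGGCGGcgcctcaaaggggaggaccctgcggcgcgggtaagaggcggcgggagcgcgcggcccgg

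SARS2/MRPS12: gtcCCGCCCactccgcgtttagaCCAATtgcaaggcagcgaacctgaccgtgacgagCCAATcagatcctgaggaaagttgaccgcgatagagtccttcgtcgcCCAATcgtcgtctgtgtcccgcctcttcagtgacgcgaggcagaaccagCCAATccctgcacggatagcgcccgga

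H3C4/H2BC7: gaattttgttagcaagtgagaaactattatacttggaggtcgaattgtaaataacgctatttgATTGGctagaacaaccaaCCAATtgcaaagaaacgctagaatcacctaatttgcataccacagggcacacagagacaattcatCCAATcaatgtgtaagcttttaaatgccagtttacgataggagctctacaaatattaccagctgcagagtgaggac

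The second group had H3K27me3 on at least 1 gene. In CCDC148 and PKP4 (chr2:158456754-158456951), the latter a junctional armadillo protein gene, H3K27me3 lay on the first and H3K79me2 on the second. COL4A4 and COL4A3 (chr2:227164489-227164623) encode collagen chains of the kidney filter, ILDR2 and MAEL (chr1:166975541-166975581) include a germline gene, and DUOX2 and DUOXA2 (chr15:45114173-45114325) encode a hydrogen peroxide-forming oxidase and its maturation factor.

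CCDC148/PKP4: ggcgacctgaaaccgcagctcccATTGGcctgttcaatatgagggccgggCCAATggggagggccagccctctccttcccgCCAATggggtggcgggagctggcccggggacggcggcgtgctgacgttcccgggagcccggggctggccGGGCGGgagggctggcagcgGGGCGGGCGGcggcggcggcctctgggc

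COL4A4/COL4A3: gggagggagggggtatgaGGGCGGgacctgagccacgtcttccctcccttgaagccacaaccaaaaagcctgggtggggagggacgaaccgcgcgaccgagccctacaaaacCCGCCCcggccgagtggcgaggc

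ILDR2/MAEL: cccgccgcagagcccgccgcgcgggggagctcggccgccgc

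DUOX2/DUOXA2: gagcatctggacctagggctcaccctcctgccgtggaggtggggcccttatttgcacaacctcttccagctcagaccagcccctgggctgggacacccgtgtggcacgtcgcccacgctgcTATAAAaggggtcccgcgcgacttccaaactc

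The third group had no H3K4me3 peak over the gap. PLCZ1 and CAPZA3 (chr12:18738013-18738118) are genes of sperm proteins, with 0 CG dinucleotides in the gap. SPRR2G and LELP1 (chr1:153203279-153203429) lie in the epidermal differentiation complex, with 1 CG dinucleotide, against 20 in the gap of COL4A1 and COL4A2 and 9 in the 41 bp of ILDR2 and MAEL. Other gaps went the other way. Without H3K4me3, the gap of DMGDH and BHMT2 had 15 CG dinucleotides in 92 bp and that of SNCB and EIF4E1B 19 in 140 bp. With H3K4me3, the gap of H3C4 and H2BC7 shown above had 4 in 222 bp. The pairs shown were picked for display after their values were seen.

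PLCZ1/CAPZA3: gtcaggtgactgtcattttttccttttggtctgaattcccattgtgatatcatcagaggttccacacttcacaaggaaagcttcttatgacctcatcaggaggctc

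SPRR2G/LELP1: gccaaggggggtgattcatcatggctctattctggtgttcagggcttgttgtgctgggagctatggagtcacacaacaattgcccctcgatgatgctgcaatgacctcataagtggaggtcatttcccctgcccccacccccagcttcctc

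H3K4me3 filled nearly every head-to-head gap. A gap was called when the authors' peaks covered at least 25% of it. This held for 1355 of the 2018 close pairs (67.1%), where the share over all 16401 gaps was 16.2%. By orientation it held for 730 of 748 head-to-head pairs (97.6%), 257 of 377 tandem pairs (68.2%), 38 of 337 tail-to-tail pairs (11.3%) and 330 of the 556 pairs of unknown strand (59.4%). Long gaps are seldom covered over 25% of their length, so gene starts were also compared over equal windows. In the 250 bp outward from the start, 97.3% of the 1496 gene starts in head-to-head close pairs had H3K4me3, against 62.1% of 9686 starts that faced a gap over 5000 bp. For close pairs that window can reach into the partner gene. Of the gene ends in tail-to-tail close pairs, 10.2% had H3K4me3 in the outward window, against 4.66% of 9080 ends facing a gap over 5000 bp.

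A single peak spanned the gap. Of the 730 head-to-head gaps with H3K4me3, 723 (99.04%) were covered in full and 0 had more than 1 peak. The median peak was 4473 bp wide (quartiles 3445 and 6011 bp) with a fold of 17.6 over the caller's background, the authors' value for each peak. At starts facing a gap over 5000 bp with H3K4me3, the median peak was 3358 bp wide with a fold of 15.9. The peak over a head-to-head gap ran past both edges in 723 pairs, and by at least 500 bp on both sides in 680 (93.2%). Its median reach was 1570 bp on the shorter side and 2664 bp on the longer side. A peak that spans both starts cannot be divided between the genes in a peak list.

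In tandem pairs H3K4me3 leaned to the starting gene. Of the 257 tandem pairs with the mark, the peak reached farther into the gene that starts at the gap in 220 (85.6%). The median reach was 1929 bp into the starting gene and 502 bp into the ending gene. Tail-to-tail pairs with H3K4me3 tended to hold a short gene. The shorter gene was under 5000 bp in 25 of the 38 pairs (65.8%), against 74 of 299 tail-to-tail pairs without the mark (24.7%), and in 20 of the 38 the peak spanned a whole gene. RPL7A and SURF1, a ribosomal protein gene of 3209 bp and a cytochrome c oxidase assembly gene, were such a pair. Their gap of 331 bp at chr9:133351427-133351757 was covered over 96.4% by a peak of 5973 bp that also covered the gap between MED22 and RPL7A.

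**Figure D1:**
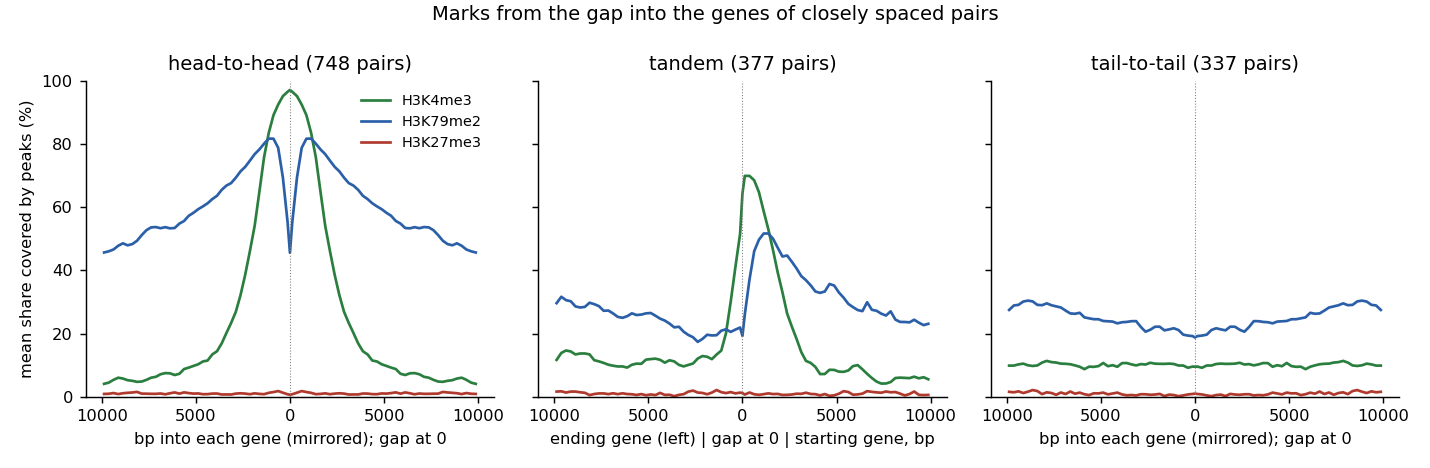
Mean share of 250 bp bins covered by peaks of each mark (y axis, %), by distance from the gap into the genes (x axis, bp), for head-to-head, tandem and tail-to-tail close pairs; the value at 0 is the gap itself, and the outer panels are mirrored over both genes. In head-to-head pairs H3K4me3 covers 97.2% of the gap and H3K79me2 rises from 45.6% in the gap to 81.8% in the 250 bp after 1000 bp; tail-to-tail pairs have no such rise.

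H3K79me2 in the peaks as deposited lay on both genes of most head-to-head pairs. The window was the first 5000 bp of the gene counted from the gap, or a shorter record as a whole, and 25% of it had to lie under peaks for a call. Of the 2018 close pairs, 837 (41.5%) had the mark on both genes, 588 (29.1%) on one and 593 (29.4%) on neither. Over all gaps these shares were 16.1%, 37.5% and 46.4%. With peaks of −log10 q of 5 or more, both genes were marked in 186 close pairs of any orientation, and with peaks of 5-fold or more in 29, both far below the 748 head-to-head pairs, so the majority did not hold there. In head-to-head pairs the counts were 524 (70.05%), 166 (22.2%) and 58 (7.75%). In tandem pairs they were 83 (22.02%), 148 (39.3%) and 146 (38.7%), and in tail-to-tail pairs 54 (16.0%), 101 (30.0%) and 182 (54.0%). Pairs of unknown strand lay between, with 176 on both, 173 on one and 207 on neither.

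In head-to-head pairs the mark was lower in the gap itself than in the first 5000 bp of the genes. Over head-to-head pairs, peaks of H3K79me2 covered on average 45.6% of the gap, 55.3% of the first 250 bp of each gene and 81.8% of the 250 bp that follow the first 1000 bp. The mean then fell to 58.3% in the 250 bp after 5000 bp, over the genes long enough to reach there. In tandem pairs the starting gene had 51.7% in the 250 bp after 1000 bp and the ending gene 20.9%, as the profile from the gap into the genes shows. The starting gene was called in 197 of 377 tandem pairs (52.3%) and the ending gene in 117 (31.0%), and 114 pairs had the mark on the starting gene alone, against 34 on the ending gene alone.

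Whether the 2 calls of a pair are separate depends on the gap. Of the 524 head-to-head pairs with both genes marked, 310 (59.2%) had 1 H3K79me2 peak running through the gap and 199 (38.0%) had a gap free of the mark. Of the 54 tail-to-tail pairs with both marked, 40 (74.1%) had 1 peak running through and 8 a free gap. The fold given for a gene is the highest among the peaks that touch its window. Where 1 peak runs into both genes, their folds can be the same number and are not independent values.

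Partners were marked together somewhat more often than their separate shares give. If the calls of left and right gene were unrelated, 65.8% of head-to-head close pairs would have both, and 70.05% did. The figures were 17.3% and 22.02% in tandem pairs and 9.61% and 16.0% in tail-to-tail pairs. The odds ratio of the calls was 4.42, 2.22 and 3.86 in the same order. In head-to-head pairs over 20000 bp apart it was 1.43, with 26.6% of pairs marked on both. In tandem pairs over 20000 bp apart it was 0.749. Left and right genes of tandem pairs mix starting and ending genes, which differ in their shares of calls. The tandem products and odds ratios are therefore not those of starting against ending genes, and a value under 1 cannot be read as avoidance. With both genes at least 5000 bp long, the head-to-head odds ratio was 4.397 at 1 to 1000 bp, 3.11 over 1000 and up to 5000 bp, 3.13 up to 20000 bp and 1.28 beyond. The Spearman correlation of the covered shares over those 593 close head-to-head pairs was 0.316, as a description over pairs of 1 library that can share a peak.

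**Figure D2:**
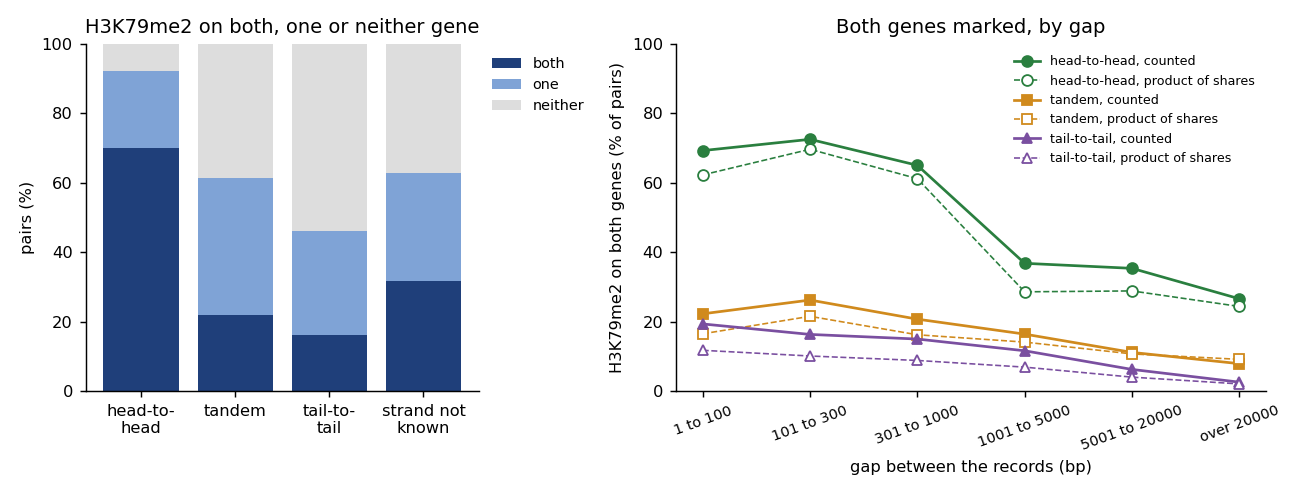
Left, share of close pairs (%) with H3K79me2 on both, one or neither gene, by orientation; right, share of pairs with both genes marked (y axis, %) by gap length (x axis, bp), counted (solid) and as the product of the shares of left and right genes (dashed). Head-to-head pairs stay between 65.0% and 72.5% up to 1000 bp and are at 36.8% over 1000 and up to 5000 bp. In tandem pairs the left and right genes mix starting and ending genes.

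By fold over a gap covered in full and H3K79me2 on both genes, the first pair was STX10 and IER2, a syntaxin gene and an immediate early gene. Their gap of 35 bp at chr19:13150376-13150410 lay in a peak of 7536 bp and 30.2-fold. The peak reached 5927 bp toward IER2 and 1574 bp toward STX10, and H3K79me2 covered 83.1% of the window of IER2 (3.54-fold) and 70.7% of that of STX10 (2.98-fold). ATP5ME, an ATP synthase subunit gene, with MYL5 (27.7-fold) and the tandem pair GAPDHS with TMEM147 (27.04-fold) came next. UIMC1, a DNA damage response gene, and ZNF346 shared a peak of 26.9-fold, and H3K79me2 of 3.25-fold covered 100% of both windows. HDAC3, the gene of a histone deacetylase, and RELL2 had 26.4-fold, with H3K79me2 over 100% and 35.2%. DDX51 and NOC4L, both tied to ribosome assembly, had 26.1-fold with 51.1% and 71.4%. The other pairs among the first 10 were GNL1 with PRR3 (26.8-fold), LOC124901446 with ZDHHC14 (26.55-fold), BET1L with RIC8A (26.3-fold, strand not known) and the tandem pair SS18L1 with MTG2 (26.03-fold). None of these 10 pairs had H3K27me3 called.

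The widest peaks over a gap belonged to other pairs. IRS2, the insulin receptor substrate gene, with LOC124903211 had 14905 bp. HNRNPA2B1 and CBX3, genes of an RNA-binding protein and a heterochromatin protein, had 14878 bp at 18.0-fold (chr7:26200747-26201442), reaching 8742 bp into the first and 5440 bp into the second. H3K79me2 covered 100% of the window of HNRNPA2B1 (4.81-fold) and 92.2% of that of CBX3 (5.23-fold), but 4.74% of the gap. TLCD1 with NEK8 (14405 bp), DNAI4 with MIER1 (13410 bp) and PPIH with YBX1 (13382 bp, tandem) came next. All but TLCD1 among these genes had H3K79me2, and TLCD1 had 0% covered in its 3590 bp, although the H3K4me3 peak reached 12400 bp past the gap on its side.

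Of 23 textbook pairs listed, 13 were found among the members by their listed symbols, 10 of them head-to-head. Of the 13, 11 (84.6%) had H3K79me2 on both genes, beside 41.5% of all close pairs and 70.05% of head-to-head ones. GART and SON had an H3K4me3 peak of 7839 bp and 21.0-fold and H3K79me2 of 4.94-fold over 100% of both windows in 1 peak. NPAT, an activator of histone genes, and ATM, the DNA damage kinase gene, had H3K4me3 of 6304 bp reaching 2954 and 2922 bp, and separate H3K79me2 peaks of 3.43-fold over 94.6% of NPAT and 5.36-fold over 96.8% of ATM, with the gap free. RARS2 with ORC3, an origin recognition gene, had 20.8-fold H3K4me3 and H3K79me2 over 100% of both. TMEM258 with the flap endonuclease gene FEN1 had 25.4-fold, and 91.7% and 100%. TK1, the thymidine kinase gene, with AFMID had 12.0-fold, and 89.8% and 83.4%. SARS2 with MRPS12, U2AF1L4 with PSENEN, SURF1 with SURF2, POLR2I with TBCB and PSMB4 with POGZ also had both genes marked, the last tail-to-tail with no H3K4me3 over the gap. HSPD1 and HSPE1, the mitochondrial chaperonin genes, were listed but are not counted among the 13. They met the rule, head-to-head, through the read-through record HSPE1-MOB4, which starts at the same base as HSPE1. Their gap of 104 bp lay in a peak of 9844 bp and 16.9-fold, with H3K79me2 over 91.1% and 98.9%.

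The collagen pairs differed. COL4A1 and COL4A2 had H3K4me3 of 3926 bp and 21.4-fold and 1 H3K79me2 peak of 2.63-fold over 100% of both windows. COL4A4 and COL4A3 had H3K4me3 of 2529 bp and 18.2-fold over a gap of 135 bp, close to the 126 bp of the first pair, but 0% of H3K79me2 on either gene. H3K27me3 covered 43.4% of the 1000 bp into COL4A4 (3.85-fold) and 16.5% of that into COL4A3 (2.31-fold), against 0% on COL4A1 and COL4A2. TAP1 and PSMB9, genes of antigen processing, were the textbook pair with one gene marked. H3K79me2 covered 31.0% of the window of TAP1 and 0% of that of PSMB9, under H3K4me3 of 25.2-fold that reached 1844 bp into TAP1 and 1032 bp into PSMB9.

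Of 37 pairs holding a gene of oxidative phosphorylation, 32 had H3K4me3 over the gap (86.5%), beside 67.1% of all close pairs. H3K79me2 lay on both genes of 29 (78.4%), beside 41.5% of all close pairs. The mix of orientations differed, since 21 of the 37 were head-to-head, against 748 of all 2018. Of head-to-head pairs, 97.6% had H3K4me3 over the gap and 70.05% had both genes marked with H3K79me2. Head-to-head pairs were 12 of the 22 with a DNA repair or replication gene and 17 of the 34 with a mitochondrial ribosomal gene. They were 11 of the 29 with a cytosolic ribosomal gene, 6 of the 20 with a proteasome gene and 21 of the 45 with a ZNF gene. How far this mix bears on the shares was not tested. The share with both genes marked was 68.2% for pairs with a DNA repair or replication gene. It was 65.5% with a cytosolic and 64.7% with a mitochondrial ribosomal gene, 50% with a proteasome gene and 46.7% with a ZNF gene. WDR4 with NDUFV3 (25.4-fold), TEPSIN with NDUFAF8 (25.2-fold), HIRA with MRPL40 (22.6-fold), PPP1R10 with MRPS18B (22.1-fold), RPL12 with LRSAM1 (24.0-fold), LIG1 with ZSWIM9 (21.2-fold), PSME2 with RNF31 (23.4-fold) and ZNF425 with ZNF398 (25.75-fold) were examples, each with H3K79me2 on both. The tandem pair NME3 with MRPS34 (25.6-fold) had it on MRPS34 alone, and the tandem pair ZNF324 with ZNF446 (23.6-fold) on neither. PSMB8 with TAP1 (22.2-fold), also tandem, had it on PSMB8 alone. In these pairs MRPS34, ZNF324 and TAP1 end at the gap. The windows of ZNF324 and TAP1 were thus the last 5000 bp of the gene and not its start, and that of MRPS34 was its whole record of 1240 bp.

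Of 20 pairs with a replication-dependent histone gene, 11 of them head-to-head, 20 had H3K4me3 over the gap, beside 67.1% of all close pairs. H3K79me2 lay on both genes of 3 (15%), on one of 8 (40%) and on neither of 9 (45%), beside 41.5%, 29.1% and 29.4% of all close pairs. The difference was not tested. H3C4 with H2BC7 had H3K4me3 of 19.3-fold with H3K79me2 over 68.05% and 40.4%. H2AC15 with H2BC15 (17.7-fold) had 51.2% and 0%, and H2AC25 with H2BC26 (17.6-fold) 20.8% and 0%. Where such a record is short, as the 510 bp of H2AC25, the window is the whole record, and over all head-to-head pairs the first 250 bp of a gene had a mean of 55.3% against 81.8% farther in. Histone gene copies are near-identical, and the sources do not say how reads that fit several copies were treated. Of 6 pairs with an olfactory receptor gene, 1 of them head-to-head, 0 had H3K4me3 over the gap and 0 had H3K79me2 on either gene, beside 67.1% with H3K4me3 and 29.4% with H3K79me2 on neither gene among all close pairs. The 2 HOX and the 2 protocadherin pairs had no H3K79me2, and PRAC2 with HOXB13 had H3K4me3 of 2.62-fold. No keratin-associated or HLA gene was in a close pair (0 of 94 and 0 of 19).

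Where one gene of a head-to-head pair had H3K79me2, H3K4me3 reached farther into that gene. Among the 164 such pairs with H3K4me3 over the gap, the reach was longer on the side of the marked gene in 152 (92.7%). The median reach was 2310 bp into the marked gene and 948 bp into the unmarked one. With both genes at least 5000 bp long it was longer on the marked side in 117 of 124 pairs (94.4%). The marked gene was the longer one in 79 of the 164 pairs. The unmarked gene had 0% covered in 81 pairs and 10% to 25% in 57, so a part of these pairs sat near the threshold. The peak over the gap also differed in width by state. Its median was 4919 bp with both genes marked (524 pairs), 3504 bp with one (164 pairs) and 1946 bp with neither (42 pairs), at 18, 17.6 and 13.2-fold.

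**Figure D3:**
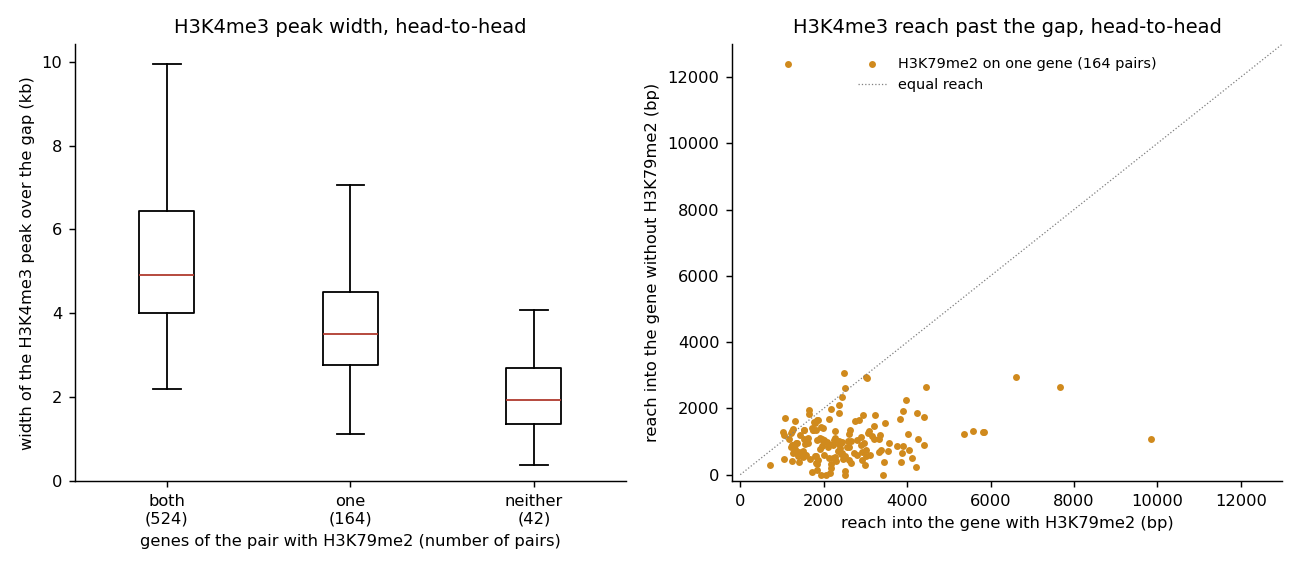
Left, width of the H3K4me3 peak over head-to-head gaps (y axis, kb) by the number of genes with H3K79me2 (boxes, quartiles with the median line; whiskers, the farthest pair within 1.5 times the box; more distant pairs not drawn). Right, each head-to-head pair with H3K79me2 on one gene, by the reach of the H3K4me3 peak past the gap into the gene with (x axis, bp) and without H3K79me2 (y axis, bp); 152 of 164 points lie below the line of equal reach.

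Among pairs with the greatest contrast, both genes being at least 5000 bp long, the marked gene had up to 100% of its window covered and the partner 0%. CCNA2, the gene of cyclin A2, and BBS7, a gene of the ciliary BBSome, were tandem with a gap of 445 bp at chr4:121823884-121824328. The H3K4me3 peak reached 3282 bp into CCNA2, which starts there, and 255 bp into BBS7, and H3K79me2 of 3.99-fold covered CCNA2 alone. CDKN1B, the gene of the CDK inhibitor p27, had 5.08-fold H3K79me2 over 100% and GPR19, an orphan receptor gene 121 bp away, had 0%, under 1 H3K4me3 peak of 12939 bp that reached 11549 bp toward CDKN1B and 1269 bp toward GPR19. In a head-to-head pair, NOL9, an RNA processing gene, was marked and TAS1R1, a taste receptor gene, was not. Their gap of 793 bp was 69.4% covered by H3K4me3, with a reach of 2517 bp into NOL9 and 0 bp into TAS1R1. ADAM15 was marked beside DCST1 (tandem, 21.3-fold H3K4me3) and CEBPZOS beside the sulfotransferase gene SULT6B1 (head-to-head, 19.9-fold, reach 2141 and 45 bp). STARD3 was marked beside PPP1R1B (21.9-fold) and CLASRP beside RELB (12.8-fold), both pairs of unknown strand, like GPR19 with CDKN1B. BBS7 and DCST1 end at the gap, so their 0% is of the last 5000 bp of the gene and not of its start. Where the strand is unknown, the 0% may also be of a gene end.

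H3K27me3 was rare at close pairs. The same share was asked of the first 1000 bp of each gene counted from the gap. Of the 2018 pairs, 59 (2.92%) had it on at least one gene, 17 on both and 42 on one, beside 11% of all gaps for at least one, 1.13% for both and 9.83% for one. The share with at least one was 2.27% in head-to-head, 2.65% in tandem and 1.19% in tail-to-tail close pairs. It was higher, 5.04% (28 of 556), in pairs of unknown strand, which also held 7 of the 17 pairs with both. Over pairs of any orientation the share with at least one rose with the gap. It was 5.52% over 1000 and up to 5000 bp, 9.56% up to 20000 bp and 15.6% beyond. At single gene starts, 1.60% in head-to-head close pairs were called, against 8.91% of starts facing a gap over 5000 bp. Most calls rested on weak peaks. With peaks limited to a −log10 q of 5 or more, 12 close pairs (0.595%) and 1.20% of all gaps were called.

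Of the 17 pairs with H3K27me3 on both genes, 0 had H3K79me2 on either gene, where 29.4% of all close pairs had it on neither. H3K4me3 lay over the gap in 12 of the 17, a share near the 67.1% of all close pairs. THPO, the thrombopoietin gene, and CHRD, the gene of the BMP antagonist chordin, had H3K27me3 over 92% and 72.6% of the windows (5.77-fold) around an H3K4me3 peak of 1373 bp and 12.6-fold (gap 365 bp, chr3:184379689-184380053). ILDR2 and MAEL had 85.6% (3.46-fold) and 74.1% (4.96-fold) with H3K4me3 of 16.8-fold. DUOX2 and DUOXA2 had 72.1% and 68.5% with weak H3K4me3 of 2.41-fold over 384 bp. LGI3 and the surfactant gene SFTPC had 69.1% and 83.8% with 5.69-fold H3K4me3, PNMA2 and the neuronal gene DPYSL2 100% and 56.4% with 13.9-fold, ZFYVE28 and CFAP99 56.8% and 54.5% with 14.8-fold, and LOC124903406 and the potassium channel gene KCNK13 100% and 89.9% with 5.97-fold. PTH2 and GFY had 100% (9.30-fold) and 63.2% with no H3K4me3 peak over the gap. In head-to-head pairs the median H3K4me3 fold was 12.6 with H3K27me3 on both (5 pairs with H3K4me3), 9.17 with it on one (9 pairs) and 17.7 with it on neither (716 pairs).

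Opposite marks on the partners were rare, as was H3K27me3 itself. H3K27me3 on one gene and H3K79me2 on the other alone was seen in 4 close pairs (0.198%), beside 2.76% of all gaps. Among pairs with H3K27me3 on just one gene, this state was found in 4 of 42 close pairs and in 452 of 1612 over all gaps. CCDC148 had H3K27me3 over 34.3% and PKP4 H3K79me2 over 98.4% (3.69-fold), with H3K4me3 reaching 885 bp toward CCDC148 and 4394 bp toward PKP4. PURG had H3K27me3 over 91% (5.15-fold) and WRN, a DNA helicase gene, H3K79me2 over 98.7%. The zinc finger gene PLAG1 had 74.7% (5.68-fold) and CHCHD7 H3K79me2 over 93.3%, and DENND2B had 41.7% and AKIP1 H3K79me2 over 74.4%. In all 4 the H3K4me3 peak covered the whole gap and reached farther toward the gene with H3K79me2. WBP11 had H3K27me3 over 25.6% of its window, just above the threshold, with H3K79me2 on it and on C12orf60, the 1 pair with H3K79me2 on both genes and an H3K27me3 call.

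**Figure D4:**
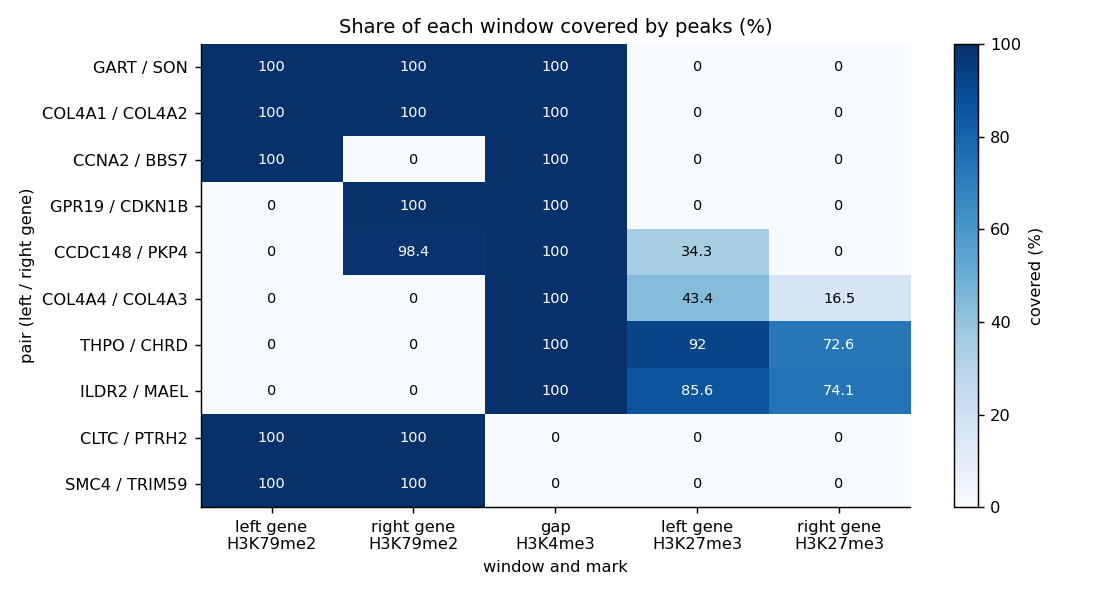
Share of each window covered by peaks (colour and printed value, %) for 10 named pairs (rows, left and right gene by position) in 5 windows (columns): 5000 bp into each gene for H3K79me2, the gap for H3K4me3 and 1000 bp into each gene for H3K27me3. COL4A1 and COL4A2 have 100% H3K79me2 on both genes, and COL4A4 and COL4A3 have 0%.

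Taking the marks jointly, 777 close pairs (38.5%) had H3K4me3 over the gap with H3K79me2 on both genes, beside 7.44% of all gaps. H3K4me3 with H3K27me3 on at least one gene was found in 36 (1.78%), beside 0.488% of all gaps. Long gaps are seldom covered over 25% of their length, which lowers both shares over all gaps. Among gaps with H3K4me3, H3K79me2 lay on both genes in 777 of 1355 close pairs and in 1220 of 2664 over all gaps. H3K27me3 lay on at least one gene in 36 of the 1355 and 80 of the 2664. H3K4me3 with neither other mark was found in 135, and 405 pairs (20.1%) had no call at all. Of those 405, 13 were head-to-head, 85 tandem and 169 tail-to-tail, and 138 had a gene of unknown strand. Both genes with H3K79me2 and no H3K4me3 called over the gap occurred in 60 pairs, 40 of them tail-to-tail and 0 head-to-head. CLTC, the clathrin heavy chain gene, and PTRH2 met tail to tail in 1 H3K79me2 peak of 4.43-fold over 100% of both windows and the gap. SMC4, a condensin gene, with TRIM59 (4.01-fold), C2orf69 with TYW5 (4.07-fold), TCF7 with SKP1 (3.71-fold) and RNF146 with ECHDC1 (2.49-fold) were tail-to-tail too, and PURA with IGIP (3.41-fold) had no known strand.

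The shortest gaps, of 1 bp, were 5 in number and did not share a state. NOP56 with IDH3B had H3K79me2 on both (4.39- and 4.24-fold) and no H3K4me3 over the gap, SRRM2 with ELOB had both marks (6.05-fold H3K79me2 on SRRM2), NAXE with GPATCH4 had H3K79me2 on both, POMT1 with UCK1 had no call, and GRIN1, a glutamate receptor gene, with LRRC26 had H3K27me3 of 7.31-fold on both with H3K4me3 of 6.69-fold.

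The promoters of head-to-head pairs were rich in CpG. The 300 bases around the outermost start of each gene, 250 before and 50 after, were compared in the RefSeq table. Of 1496 promoters in head-to-head close pairs, 91.9% had a CpG ratio (observed over expected) of at least 0.6, against 66.1% of all 15101 promoters of protein-coding genes and 62.9% of those facing a gap over 5000 bp. The median ratio was 0.875, 0.765 and 0.750 in the same order. CCGGAAGT was in 15.6% of head-to-head promoters and 6.29% of all, GGGCGG in 71.7% and 58.7%, CCAAT in 42.8% and 36.0%, the NRF1 site in 3.61% and 1.78%, the YY1 site in 2.81% and 1.37%, and TATAAA in 3.88% and 9.83%. Partner windows overlap when the gap is under 500 bp and then share letters, so these are not independent sequences.

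Promoter letters also differed with the marks. With H3K79me2 on both genes, on one and on neither, the median CpG ratio was 0.899, 0.824 and 0.789. CCGGAAGT was in 19.2%, 8.43% and 4.31% of these promoters, and TATAAA in 2.77%, 5.12% and 10.3%. CCAAT went from 45.0% to 38.9% and 33.6%. The NRF1 site did not follow this order, with 3.34%, 4.52% and 3.45%. Of the 34 promoters in pairs with H3K27me3 on at least one gene, 0 held CCGGAAGT and 6 held TATAAA (17.6%), as the gap of DUOX2 and DUOXA2 printed above does. The 36 promoters of head-to-head pairs without H3K4me3 had a median ratio of 0.559 and 41.7% reached 0.6. Of these 36, 3 held the NRF1 site (8.33%) and 1 held TATAAA (2.78%). In tandem pairs the promoter of the starting gene had a median ratio of 0.813 with H3K4me3 over the gap (257 promoters) and 0.358 without (120 promoters).

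All 18 head-to-head pairs without H3K4me3 over the gap had 0% of it covered. They included the GABA receptor genes GABRA4 and GABRB1, with H3K27me3 over 49.9% and 86.2%, the olfactory receptor genes OR11A1 and OR2H1, the sperm genes PLCZ1 and CAPZA3, and SPRR2G with LELP1. H3K79me2 was called in 2 of the 18, on NFKBID (56.8%) beside HCST and on FBXO46 (54.6%) beside MEIOSIN. At the other end, 31 head-to-head pairs had H3K4me3 with no call of either other mark, led by OBSL1 and INHA (24.7-fold) and by PGAP3 and ERBB2 (21.6-fold), the growth factor receptor gene. H3K79me2 covered 17.4% of the window of PGAP3 and 15.1% of that of ERBB2, below the threshold. These pairs were named after their values were seen.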

How the data were processed

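ChIP-seq peaks of 3 libraries (H3K4me3, H3K79me2, H3K27me3; 1 per mark) were analysed. The submitters' processing notes name hg38, Bowtie2 2.3.1 and MACS2 2.1.1, and a p of 0.05 stands in the names of the deposited peaks. The sources do not say whether the input served as control. The deposited fold (a ratio over the caller's background), −log10 p and −log10 q are the authors' values per peak, from lists called per library. Of RefSeq's protein-coding records, 153 were left out because they stood outside the ordered run of their chromosome in the table, where unplaced and alternate scaffolds are listed, a step added after values were seen. On chromosomes 1 to 22 there were 65793, 109105 and 353923 peaks. Read depth is unknown, so no interval is given.

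Covered shares were computed with Python 3.11.15, numpy 2.4.6 and pandas 2.3.3, and the functions were tested on simulated data. Gaps were taken where no protein-coding record lay. Of records sharing a gap edge (41 members) the longest was used. Alternatives covered peak thresholds, covered share, gap length, gene length and window size. Named pairs followed a rule: the highest fold, width or covered share in each class of marks, the 5 shortest gaps, listed textbook pairs, and up to 3 pairs for each gene list. Not every pair the rule takes is named. Members, lists and rule were chosen with earlier results of these data known.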

Additional observations from a re-analysis of the deposited data

How the results depend on the processing

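Counts of H3K4me3 over the gap stayed within 1.5 times of the reported 1355 close pairs and 730 head-to-head pairs under every alternative run. Those of H3K79me2 depended on peak strength. Pairs with the mark on both genes fell from 837 to 186 with −log10 q of at least 5 (9.22% of close pairs, 2.07% of all gaps) and to 29 with fold of at least 5. Pairs with it on one gene fell from 588 to 237 and 77 in the same settings, and pairs with both H3K79me2 genes and H3K4me3 from 777 to 173 and 26. Pairs with H3K27me3 on at least one gene went from 59 to 39 with −log10 q of at least 1.3, 12 with at least 5, 15 with fold of at least 5, 31 with 50% covered and 144 with at least 1 bp covered. By construction, the thresholds on q and fold remove peaks and the others change the share that must be covered. All other values of these counts stayed within 1.5 times, also with the scaffold records kept, an alternative chosen after seeing the data (2023 pairs, 1358 with H3K4me3). No paired analysis was possible because each mark has 1 library. Depth, unknown here, limits how many weak H3K27me3 and H3K79me2 peaks could be called.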

Other observations

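Among head-to-head close pairs and starts facing a gap over 5000 bp, the marks were also set side by side within classes of promoter CpG ratio, a split chosen after the data were seen. At a ratio of at least 0.6, H3K4me3 lay in the outward 250 bp of 98.8% and 84.9% of starts. In either class, that window can reach the start of the partner gene in close pairs, which it cannot at long gaps. H3K79me2 was called at 84.2% of 1375 starts in head-to-head close pairs and 67.7% of 6092 starts facing long gaps, and H3K27me3 at 1.31% and 8.27%. Under 0.6, H3K4me3 lay in the outward 250 bp of 81.0% of 121 and 23.6% of 3594 starts, H3K79me2 was called at 46.3% and 14.6%, and H3K27me3 at 4.96% and 9.99%.

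Close pairs were unevenly spread over chromosomes. Per 100 protein-coding genes there were 16.3 on chromosome 16, 15.0 on chromosome 19 and 13.8 on chromosome 17, against 5.04 on chromosome 21 and 6.15 on chromosome 4. Genes in close pairs had a median record length of 18315 bp and other genes 26893 bp. At the edge of the rule, H3K4me3 lay over 47.3% of the 112 gaps of 901 to 1000 bp and over 47.3% of the 74 gaps over 1000 and up to 1100 bp.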
